A study of Mus musculus with 6 samples.

Results

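Hair keratins and the proteins that bind them were described in C57BL/6 mouse skin, wounded and sampled on day 7. The mice were diabetic through streptozotocin, which destroys the beta cells of the pancreas. The genes were chosen by name: every Krtap symbol, the keratins of the hair shaft and of the inner root sheath, and Tchh, Padi3, Msx2, Hoxc13, Foxn1, Shh and Dsg4. The table lists 56 such genes among 16131, of which 32 carry a Krtap symbol, 10 encode shaft keratins and 7 inner root sheath keratins. Of the 25 genes named beside the Krtap symbols, 24 are listed; Krt85 was not analysed here. The labels give 3 libraries treated with phosphate-buffered saline (PBS, 10 µl per day) and 3 given rFGF4, a recombinant form of the secreted growth factor FGF4, at 100 ng/ml in the same daily volume. Both groups were wounded and diabetic, so neither shows unwounded or non-diabetic skin. Age, sex, the distance of the tissue from the wound and whether each library is a separate animal are not given in the sources used here.

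A growing hair follicle holds a matrix of dividing cells at its base, whose descendants form concentric layers. The centre becomes the hair shaft, a bundle of type I and type II hair keratins set in keratin-associated proteins, which are small proteins rich in cysteine or in glycine and tyrosine. The surrounding inner root sheath moulds the shaft and hardens with its own keratins and trichohyalin. Follicles cycle through growth, regression and rest, and shaft and root sheath proteins are made during growth. Matrix cells secrete Shh, and the matrix factors Msx2, Hoxc13 and Foxn1 act upstream of hair keratin genes. Within the shaft, Krt35 appears early, low in the follicle, and most keratin-associated proteins appear late.

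The 250 bases before the start of 5 genes are shown because each has the highest mean level in its class among genes with an entry in the RefSeq promoter table, and because sheath keratins and keratin-associated genes ordered the libraries differently. Sequences are from RefSeq on GRCm38.p6, all on the minus strand and read 5′ to 3′. Capitals mark TATAAA, the TATA box, and CTTTGAA, letters that LEF and TCF factors of Wnt signalling are known to bind. The windows are chr11:99322952-99323201 for Krt25, chr15:101743098-101743347 for Krt71, chr11:100050552-100050801 for Krt31, chr16:89571184-89571433 for Krtap11-1 and chr16:89487953-89488202 for Krtap8-1.
Krt25: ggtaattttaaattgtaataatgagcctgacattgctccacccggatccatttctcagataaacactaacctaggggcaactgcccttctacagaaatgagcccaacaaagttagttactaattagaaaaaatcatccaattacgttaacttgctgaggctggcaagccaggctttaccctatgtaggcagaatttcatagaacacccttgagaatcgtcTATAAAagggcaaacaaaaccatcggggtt
Krt71: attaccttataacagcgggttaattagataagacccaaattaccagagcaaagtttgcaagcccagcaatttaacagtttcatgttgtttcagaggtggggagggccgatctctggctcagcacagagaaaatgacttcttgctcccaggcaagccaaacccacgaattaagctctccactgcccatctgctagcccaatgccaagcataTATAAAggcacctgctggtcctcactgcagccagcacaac
Krt31: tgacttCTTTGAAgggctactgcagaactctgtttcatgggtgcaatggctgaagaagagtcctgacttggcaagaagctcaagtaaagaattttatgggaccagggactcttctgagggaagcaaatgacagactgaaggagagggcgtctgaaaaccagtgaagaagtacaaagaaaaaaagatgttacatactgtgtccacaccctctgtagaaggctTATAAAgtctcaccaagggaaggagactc
Krtap11-1: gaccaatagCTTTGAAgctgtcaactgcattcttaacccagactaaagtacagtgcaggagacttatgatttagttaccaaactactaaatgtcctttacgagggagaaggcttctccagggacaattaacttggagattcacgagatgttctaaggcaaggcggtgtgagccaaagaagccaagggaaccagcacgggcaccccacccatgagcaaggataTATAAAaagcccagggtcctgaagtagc
Krtap8-1: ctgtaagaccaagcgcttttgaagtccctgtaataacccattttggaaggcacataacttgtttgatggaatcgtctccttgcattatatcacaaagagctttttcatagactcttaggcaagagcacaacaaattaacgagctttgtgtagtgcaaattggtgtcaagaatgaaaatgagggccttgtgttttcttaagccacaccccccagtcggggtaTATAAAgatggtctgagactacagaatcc
All 5 windows hold TATAAA, which begins 30, 40, 29, 28 and 29 bases before the start in the order shown. CTTTGAA begins 244 bases before the start of Krt31 and 241 bases before that of Krtap11-1, and these letters are not in the other 3 windows. An entry was found for 44 of the 56 genes. TATAAA stood on either strand in 35 of the 44 (79.5%), against 2166 of 17492 protein-coding promoters of the same length (12.4%). Both transcription factor genes with an entry, Msx2 and Foxn1, and Tchh and Padi3 lacked those letters. CTTTGAA stood in 12 of the 44 (27.3%), against 750 of 17492 (4.3%), and the letters of these 2 motifs cannot overlap. It was in 4 of 5 shaft keratin promoters and in 0 of 7 of the inner root sheath keratins. The 5 shaft promoters were all of type I keratins, since Krt81, Krt83 and Krt86 had no entry. Krt31, Krt33b and Krt34, among the 4, have closely alike transcripts, so their matches may not be separate. These are matches of letters and not measured binding.

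Libraries were compared on FPKM, a level scaled to transcript length and to the mapped fragments of the library. The listed values summed to between 304717 and 319807 FPKM per library, and no read depth can be had from FPKM. Epidermal genes marked the tissue as skin in all 6 libraries, with Krt14 at 1079 to 3776 FPKM and a summed level of 20 chosen epidermal genes, 18 of them listed, of 3333 to 11060 FPKM in PBS and 4070 to 6023 in rFGF4. Skeletal muscle genes were also present, with 14 genes summing to 2756 to 5826 FPKM in PBS and 1749 to 3598 in rFGF4. In bulk tissue, fewer cells of a type and less RNA per cell cannot be told apart. Fold changes are on the scale of log2(FPKM + 0.1) which shrinks the differences of weakly expressed genes.

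The question was which hair genes differed between rFGF4-treated and PBS-treated wounded skin, and none passed the test. Limma with Benjamini-Hochberg adjustment over all genes called 0 of the 34 hair genes that reached 1 FPKM in at least 3 libraries, with 0 at an unadjusted p under 0.05, while 12.1% of all 14676 tested genes were called (8.46% higher and 3.62% lower with rFGF4). Over all genes this was 1241 higher and 532 lower; the split turned to 77 higher and 229 lower with the length trend removed, 138 and 617 median centred and 235 and 514 quantile normalized, and 0 hair genes were called under each. The smallest adjusted p among them was 0.2995, that of Krtap8-1. Without the filter on low values, limma called 0 of all 56, with 0 at an unadjusted p under 0.05, against a background of 10.1% called. By the q-value of the authors' deposited table, 0 of the 56 were under 0.05, the smallest being 0.222 for Krtap22-2, where 11.1% of all listed genes had one. The groups overlapped in each of the 56 genes, whereas they did not overlap in 36.9% of all listed genes and 38.2% of tested genes.

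Most fold changes pointed to lower levels with rFGF4 without passing the test. Of the 56 genes, 46 had a negative log2 fold change and 10 a positive one, with a median of -0.59 beside 0.19 over all 16131 listed genes. The median was -0.51 for the 7 root sheath keratins, -0.67 for the 10 shaft keratins and -0.66 for the 32 keratin-associated proteins. Several keratin-associated genes are listed only because they passed 1 FPKM in PBS replicate 2 and in no other library. Their fold changes lean negative through that choice, and the count over 56 genes and the median over 32 include them. The keratin-associated genes are short, with a median of 754.5 bases beside 2616.5 over all listed genes with a known length. The 500 listed genes nearest in length to each keratin-associated gene had a median log2 fold change whose median over the 32 was -0.35. Over the 11 keratin-associated genes that passed the filter, the median was -0.76 as deposited and -0.40 with the length trend removed; over the 7 root sheath keratins it was -0.66 with the trend removed. The direction depended on single libraries. Over tested genes, the median of the root sheath keratins was 0.52 without rFGF4 replicate 3, and that of the keratin-associated genes was 0.10 without PBS replicate 2 and 0.52 without rFGF4 replicate 1. For the 9 tested shaft keratins it was -0.64 with all libraries, 0.08 without PBS replicate 2 and 0.15 without rFGF4 replicate 1. Of the 34 tested genes, 29 were negative with all libraries, 20 without PBS replicate 2, 19 without rFGF4 replicate 1, 20 without rFGF4 replicate 3 and 34 without PBS replicate 3 or rFGF4 replicate 2. With PBS replicate 2 and rFGF4 replicate 3 both left out, a choice made after seeing the data, 10 of 34 were negative and limma called 0, where 0.531% of all tested genes were called.

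**Figure D1:**
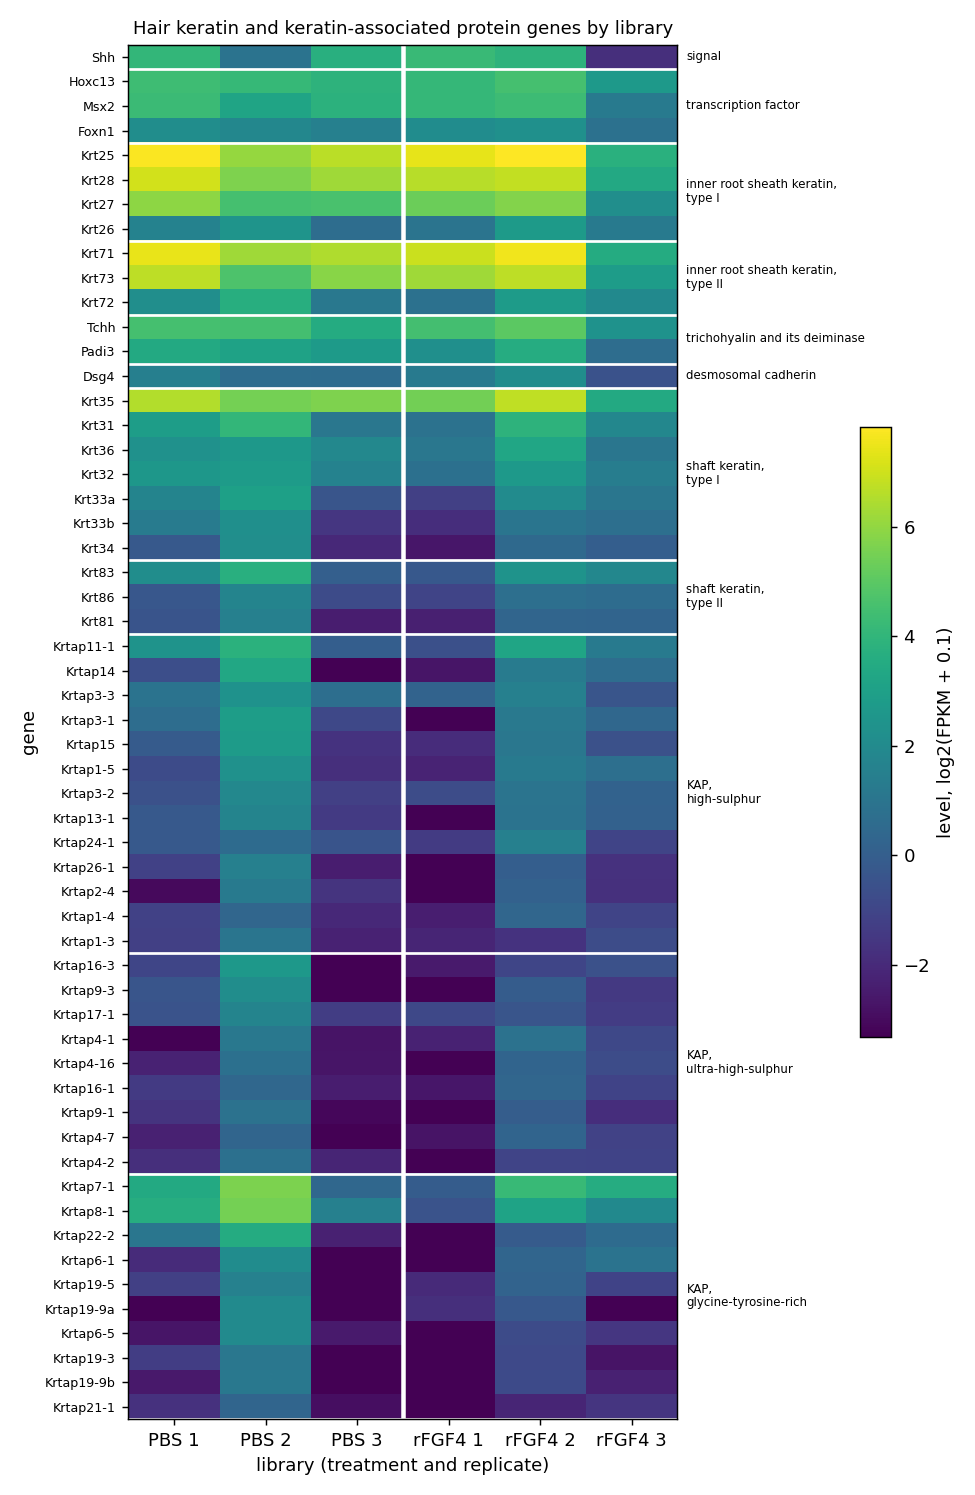
Level of the 56 genes (rows, grouped by class and ordered by mean within a class) in each of 6 libraries (columns), as log2(FPKM + 0.1), with yellow high and dark purple low. The sheath keratins other than Krt26 and Krt72 are bright in every library but rFGF4 replicate 3, whereas the keratin-associated genes are brightest in PBS replicate 2 and darkest in PBS replicate 3 and rFGF4 replicate 1.

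Shh, the matrix signal, had the widest range between libraries among the 36 hair genes above 0 in all 6. In PBS replicates 1, 2 and 3 it measured 16.5, 1.82 and 12.97 FPKM, and in rFGF4 replicates 1, 2 and 3 it measured 18.8, 14.5 and 0.187 FPKM. Its highest library was 100.8 times its lowest, and 1 library of each group was low while the other 4 lay between 12.97 and 18.8 FPKM. The group means were 10.5 ± 7.68 FPKM in PBS and 11.2 ± 9.76 FPKM in rFGF4 (SD, n = 3 each). The log2 fold change of -0.80 had a 95% interval of -4.81 to 3.21 (limma adjusted p = 0.785). It was 1.15 without rFGF4 replicate 3 and ran from -1.87 to -0.22 without any 1 of the other libraries. Ptch1 and Gli1, which Shh signalling induces, were low in the same libraries. Gli1 measured 25.0, 5.04 and 24.2 FPKM in the PBS replicates and 27.9, 24.5 and 2.79 FPKM in the rFGF4 replicates. Ptch1 measured 8.09, 1.86 and 5.77 FPKM and 9.17, 8.68 and 1.55 FPKM in the same order.

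Among the transcription factors, rFGF4 replicate 3 was the lowest library for all 3, as it was for 11.85% of all listed genes. Msx2, a homeobox factor of the matrix, measured 19.3, 9.03 and 14.4 FPKM in PBS and 16.9, 19.95 and 2.28 FPKM in rFGF4. Hoxc13, whose loss makes hair brittle, measured 20.5, 17.4 and 14.6 FPKM in PBS and 17.1, 23.2 and 6.39 FPKM in rFGF4. Foxn1, the gene mutated in nude mice, measured 4.31, 3.50 and 2.80 FPKM in PBS and 4.21, 4.73 and 1.67 FPKM in rFGF4. Their ranges over libraries were narrower than that of Shh, at 8.76-fold, 3.62-fold and 2.83-fold from lowest to highest. The log2 fold changes were -0.55 for Msx2, -0.34 for Hoxc13 and -0.11 for Foxn1, and limma adjusted p lay between 0.649 and 0.883. Without rFGF4 replicate 3 they were 0.43, 0.20 and 0.35.

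The 4 hair genes with the highest mean level were root sheath keratins. Krt25, a type I sheath keratin, measured 217.3, 67.3 and 100.4 FPKM in PBS replicates 1 to 3 and 169.3, 226.8 and 13.3 FPKM in rFGF4 replicates 1 to 3. Krt71, its type II partner class, whose mutation gives curly coats in mice, measured 175.7, 75.1 and 90.7 FPKM in PBS and 121.9, 190.5 and 11.6 FPKM in rFGF4. In both genes rFGF4 replicate 3 stood below every other library and the remaining libraries of the groups overlapped. Krt28 measured 133.6, 50.3 and 74.3 FPKM in PBS and 98.4, 112.4 and 10.4 FPKM in rFGF4. Krt73 measured 104.1, 26.5 and 57.6 FPKM in PBS and 76.3, 105.5 and 7.01 FPKM in rFGF4. Krt27 ran from 4.44 to 60.4 FPKM, again lowest in rFGF4 replicate 3. Of the 7 sheath keratins, PBS replicate 2 was the lowest PBS library in these 5, and rFGF4 replicate 3 was the lowest of all in the same 5. Over all listed genes, rFGF4 replicate 3 was the lowest library for 11.85%. The 5 were set apart from the other sheath keratins by these same values.

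The group means of the sheath keratins were close beside their spread. Krt25 averaged 128 ± 78.8 FPKM in PBS and 136.5 ± 110.5 in rFGF4, and Krt71 averaged 114 ± 54.2 and 108.0 ± 90.3 FPKM (SD, n = 3 each). The log2 fold changes were -0.51 for Krt25 (95% interval -3.06 to 2.05, limma adjusted p = 0.787) and -0.72 for Krt71 (-3.11 to 1.68, adjusted p = 0.673). For Krt28 and Krt73 they were -0.70 and -0.49 (limma adjusted p = 0.645 and 0.786). The sign for some genes depended on the scale, since a mean of logs gives a very low library more weight. The rFGF4 to PBS ratio of mean FPKM was 1.06 for Krt25, 1.004 for Krt73, 1.07 for Shh and 1.04 for Tchh. All 4 had a negative log2 fold change. Intervals this wide hold both lower and higher levels with rFGF4, so p-values over the threshold do not show equal levels. Without rFGF4 replicate 3 the fold changes were 0.79 for Krt25, 0.52 for Krt71, 0.41 for Krt28 and 0.73 for Krt73.

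Krt26 and Krt72, also sheath keratins, did not follow the other 5. Krt72 measured 4.49, 12.6 and 2.11 FPKM in PBS and 1.70, 6.89 and 3.83 FPKM in rFGF4, so that PBS replicate 2 was its highest and rFGF4 replicate 1 its lowest library. Krt26 measured 2.94, 5.43 and 1.47 FPKM in PBS and 1.86, 6.58 and 2.24 FPKM in rFGF4. Both were also far less abundant, with means over 6 libraries of 5.26 and 3.42 FPKM beside 34.4 to 132.4 FPKM for the other 5. Their limma adjusted p were 0.707 for Krt72 and 0.949 for Krt26. That Krt26 and Krt72 stand apart was read from these values.

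Trichohyalin (Tchh) and its modifying enzyme (Padi3) ranged 6.35-fold and 7.99-fold from the lowest to the highest library. Tchh, the granule protein of the inner root sheath and medulla, measured 22.98, 22.1 and 11.49 FPKM in PBS and 22.2, 31.9 and 5.02 FPKM in rFGF4. Padi3, which turns arginines of trichohyalin into citrulline, measured 10.9, 8.46 and 6.67 FPKM in PBS and 4.62, 11.99 and 1.5 FPKM in rFGF4. Both were lowest in rFGF4 replicate 3 and highest in rFGF4 replicate 2. The log2 fold change of Padi3 was -0.93 (SE 0.673, limma adjusted p = 0.389) and that of Tchh -0.23 (SE 0.675, adjusted p = 0.845). Dsg4, the desmosomal cadherin of the hair cortex, measured 2.69, 1.49 and 1.46 FPKM in PBS and 2.29, 4.28 and 0.608 FPKM in rFGF4 (log2 fold change 0.03, SE 0.647, adjusted p = 0.978).

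Among shaft keratins, Krt35 resembled Krt25 and Krt71 in part. PBS replicate 2 was its lowest PBS library, by a small margin, and rFGF4 replicate 3 its lowest of all. Unlike in Krt25 and Krt71, rFGF4 replicate 1 lay below every PBS library. Krt35, which appears early in the precortex and cuticle, measured 92.9, 45.6 and 50.4 FPKM in PBS and 43.2, 106.6 and 10.8 FPKM in rFGF4. Krt31, a later keratin of the cortex, measured 7.22, 16.7 and 2.03 FPKM in PBS and 1.76, 14.5 and 3.50 FPKM in rFGF4. Its promoter is among those shown above. PBS replicate 2 was thus the lowest PBS library for Krt35 and the highest for Krt31, and the same replicate was the highest PBS library in 9 of 9 shaft keratins other than Krt35. The FPKM ratio of Krt35 to Krt31 was 12.9, 2.73 and 24.8 in PBS and 24.5, 7.36 and 3.08 in rFGF4. The log2 fold changes were -0.70 for Krt35 (95% interval -2.56 to 1.16, limma adjusted p = 0.589) and -0.47 for Krt31 (-2.74 to 1.79, adjusted p = 0.774).

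The type II shaft keratins pair with these. Krt83 measured 4.34, 13.0 and 0.939 FPKM in PBS and 0.743, 5.19 and 3.50 FPKM in rFGF4. Krt86 measured 0.727, 3.19 and 0.485 FPKM in PBS and 0.391, 1.56 and 1.46 FPKM in rFGF4. Krt34, a type I keratin, measured 0.765, 4.50 and 0.147 FPKM in PBS and 0.0599, 1.31 and 0.903 FPKM in rFGF4, a 75.2-fold range with no test because it missed the filter. In these 3 genes PBS replicate 2 was the highest library and rFGF4 replicate 1 the lowest. Krt31, Krt33a, Krt33b, Krt34, Krt81, Krt83 and Krt86 each have a close copy: over 66.7% to 78.7% of their length, Krt31 is 94.2% identical to Krt33b, Krt33a 95.1% to Krt34 and Krt81 95.1% to Krt83. Reads may be shared, so their single values, and the ratio of Krt35 to Krt31, are uncertain. Krt32 and Krt36 varied less, from 1.65 to 6.88 FPKM and from 1.97 to 9.72 FPKM. Krt36 was the 1 hair gene called when a library was left out: without rFGF4 replicate 2, where 890 genes were called in all, its log2 fold change was -1.21 (limma adjusted p = 0.0468).

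**Figure D2:**
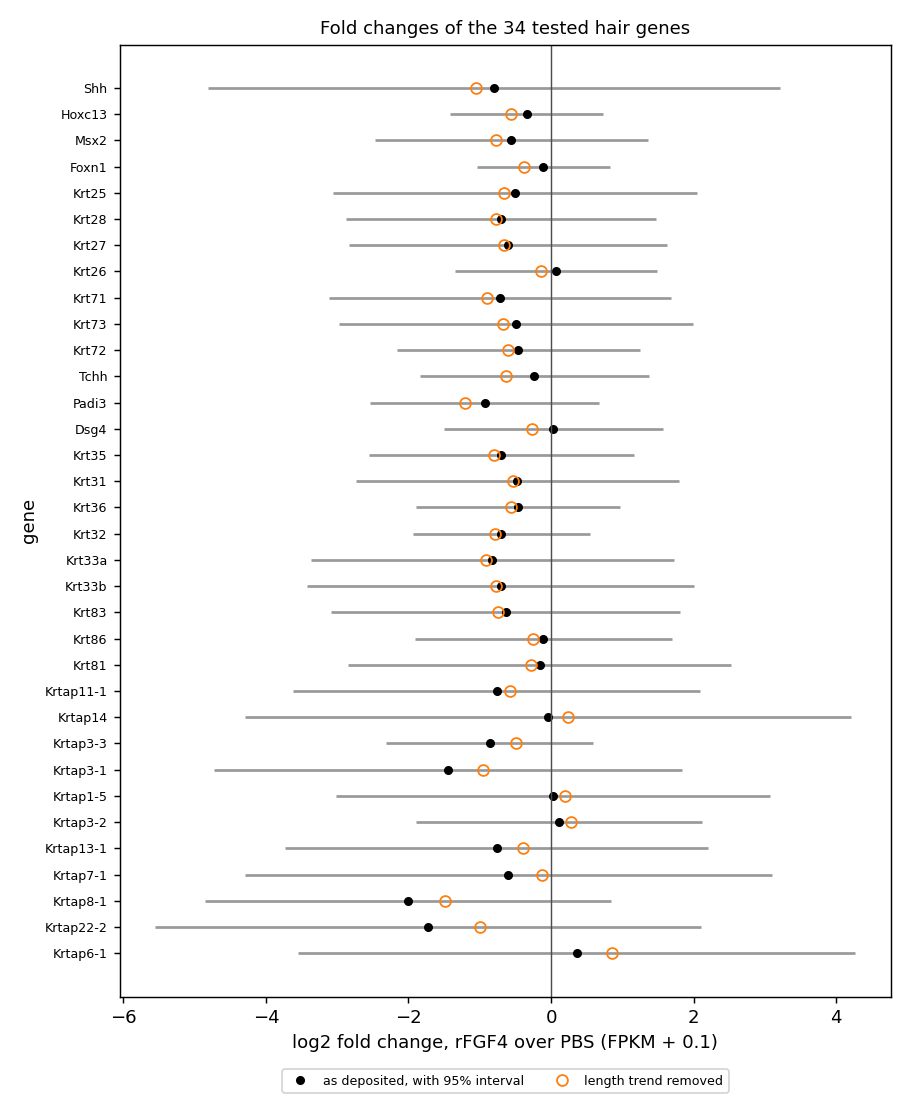
Log2 fold change of the 34 tested hair genes, rFGF4 over PBS, with the 95% interval from limma as bars (filled points) and the value with the length trend removed (open circles). Each bar spans 0; the longest, of Krtap14, runs from -4.29 to 4.21 and the shortest, of Foxn1, from -1.04 to 0.83.

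The keratin-associated proteins were low in most libraries and highest in PBS replicate 2. Summed over the 32 genes, they measured 42.2, 213 and 9.92 FPKM in PBS and 5.52, 71.6 and 34.6 FPKM in rFGF4. PBS replicate 2 was the highest PBS library in 32 of 32 and the highest of all 6 in 30 of 32, where 7.54% of all listed genes are highest in that library. The other 2, Krtap1-4 and Krtap24-1, were highest in rFGF4 replicate 2. Genes are listed only if they pass 1 FPKM in some library, and several of the 32 pass it only in PBS replicate 2. Krtap21-1, for example, measured 1.15 FPKM there and at most 0.225 FPKM elsewhere. Listing alone fixed the highest library of such genes, so the 30 of 32 cannot be weighed against the 7.54%. At the other end, 14 of the 32 were listed at 0 in rFGF4 replicate 1 and 9 in PBS replicate 3, against 0 in PBS replicate 2 and 0 in rFGF4 replicate 2. Genes listed only through PBS replicate 2 could not be at 0 there. Shares of all listed genes at 0 in each library were not computed, so these counts cannot be weighed. All 32 lie on chromosomes 16 (17 genes) and 11 (15 genes) in GENCODE M21 on GRCm38. They were sorted by family number, since protein sequences were not used here, into 13 high-sulphur, 9 ultra-high-sulphur and 10 glycine- and tyrosine-rich genes. Krtap19-9a, in the last class, is annotated in GENCODE M21 as a processed pseudogene.

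The 10 glycine- and tyrosine-rich genes summed to 26.1, 126 and 4.26 FPKM in PBS and to 1.80, 32.5 and 19.8 FPKM in rFGF4, more than the high-sulphur genes in 4 of 6 libraries and less in PBS replicate 3 and rFGF4 replicate 1. Krtap7-1 measured 10.8, 49.7 and 1.23 FPKM in PBS and 0.844, 18.4 and 11.8 FPKM in rFGF4. Krtap8-1 measured 12.3, 44.6 and 2.82 FPKM in PBS and 0.625, 8.77 and 3.77 FPKM in rFGF4. The ranges from lowest to highest library were 58.9-fold and 71.3-fold. For Krtap8-1 the means were 19.9 ± 21.9 FPKM in PBS and 4.39 ± 4.11 in rFGF4 (SD, n = 3 each), with a log2 fold change of -2.01 and a 95% interval of -4.86 to 0.85 (limma adjusted p = 0.2995). For Krtap7-1 the log2 fold change was -0.60 (-4.30 to 3.10, adjusted p = 0.828). Krtap22-2 followed at 1.95, 11.6 and 0.101 FPKM in PBS, with rFGF4 replicate 1 listed at 0 and the others at 0.807 and 1.38 FPKM. The remaining 7 genes of this class had means of 0.289 to 1.22 FPKM, and 6 of the 10 were listed at 0 in rFGF4 replicate 1.

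The 13 high-sulphur genes summed to 13.5, 63.9 and 5.02 FPKM in PBS and to 3.0, 30.8 and 11.53 FPKM in rFGF4, with PBS replicate 2 highest and rFGF4 replicate 1 lowest. Krtap11-1 measured 5.19, 13.6 and 0.898 FPKM in PBS and 0.570, 9.20 and 2.28 FPKM in rFGF4 (log2 fold change -0.76, 95% interval -3.62 to 2.10, limma adjusted p = 0.707). Krtap14 measured 0.542 and 10.1 FPKM in PBS replicates 1 and 2, was listed at 0 in PBS replicate 3 and measured 0.0535, 2.38 and 1.49 FPKM in rFGF4. Its log2 fold change was -0.04 with a 95% interval of -4.29 to 4.21 (adjusted p = 0.990). Of the 13 genes, 7 passed the filter and limma called 0. Krtap3-3 had the smallest unadjusted p of these, 0.201, at 1.82, 4.96 and 1.51 FPKM in PBS and 1.09, 2.82 and 0.657 FPKM in rFGF4. It shares a stretch of 373 bases, 50.7% of its transcript, with Krtap3-2 at 98.7% identity, so the 2 values may share reads.

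The ultra-high-sulphur genes had the lowest sum of the 3 classes in each library, and 0 of 9 passed the filter. Their sum was 2.58, 22.9 and 0.634 FPKM in PBS and 0.721, 8.31 and 3.34 FPKM in rFGF4. Krtap16-3 measured 0.403 and 6.03 FPKM in PBS replicates 1 and 2, was listed at 0 in PBS replicate 3 and measured 0.0736, 0.406 and 0.574 FPKM in rFGF4. It lies on chromosome 16, whereas the other 8 lie on chromosome 11, and its place in this class rests on its family number alone and is uncertain. Krtap9-3 measured 0.673 and 4.26 FPKM in PBS replicates 1 and 2 and 0.844 and 0.261 FPKM in rFGF4 replicates 2 and 3, and was listed at 0 in the other 2 libraries. PBS replicate 2 was the highest library for 9 of 9, but listing fixed this for those, such as Krtap9-3, that pass 1 FPKM only there. Krtap4-1 and Krtap4-2 are 95.5% identical over 52.8% and 55.0% of their transcripts and are uncertain as single values.

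**Figure D3:**
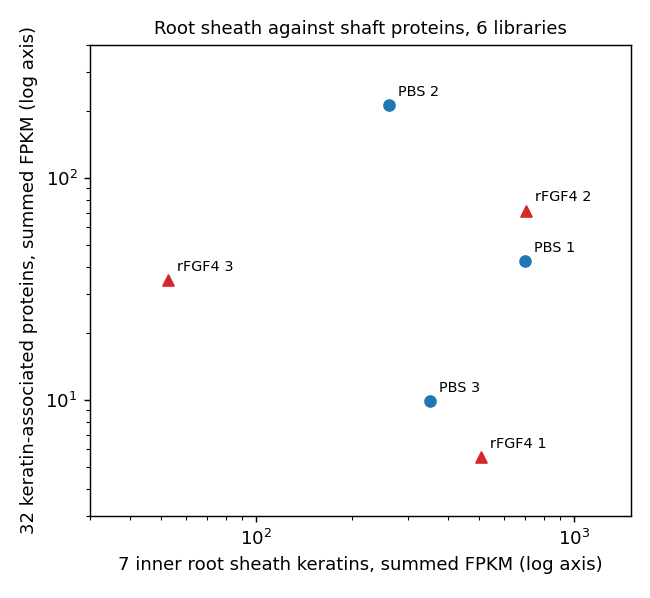
Summed FPKM of the 32 keratin-associated protein genes (vertical log axis) against the 7 inner root sheath keratins (horizontal log axis), 1 point per library, circles for PBS and triangles for rFGF4. PBS replicate 2 lies highest at 213 and 260.2 FPKM, and rFGF4 replicate 3 lies far left at 34.6 and 52.8 FPKM.

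Sheath keratins and keratin-associated genes ordered the libraries differently. The 7 sheath keratins summed to 698.6, 260.2 and 351.1 FPKM in PBS and to 509.9, 702.4 and 52.8 FPKM in rFGF4. The 10 shaft keratins summed to 123, 111 and 61.6 FPKM in PBS and to 50.5, 152 and 29.3 FPKM in rFGF4, of which Krt35 alone made up most in 4 libraries, all but PBS replicate 2 and rFGF4 replicate 3. Sheath and shaft keratin sums were both highest in rFGF4 replicate 2 and lowest in rFGF4 replicate 3. Without Krt35 the shaft sum was 30.1, 65.8 and 11.2 FPKM in PBS and 7.27, 45.7 and 18.5 FPKM in rFGF4, highest in PBS replicate 2 and lowest in rFGF4 replicate 1, as was the keratin-associated sum. The ratio of the sheath sum to the keratin-associated sum was 16.6, 1.22 and 35.4 in PBS and 92.3, 9.81 and 1.52 in rFGF4. It was lowest in PBS replicate 2, where keratin-associated genes were high, and in rFGF4 replicate 3, where sheath genes were low. Each group held 1 library with a ratio under 2, and the groups overlapped. No p is given for these sums, which were formed over genes chosen with results of these data known.

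**Figure D4:**
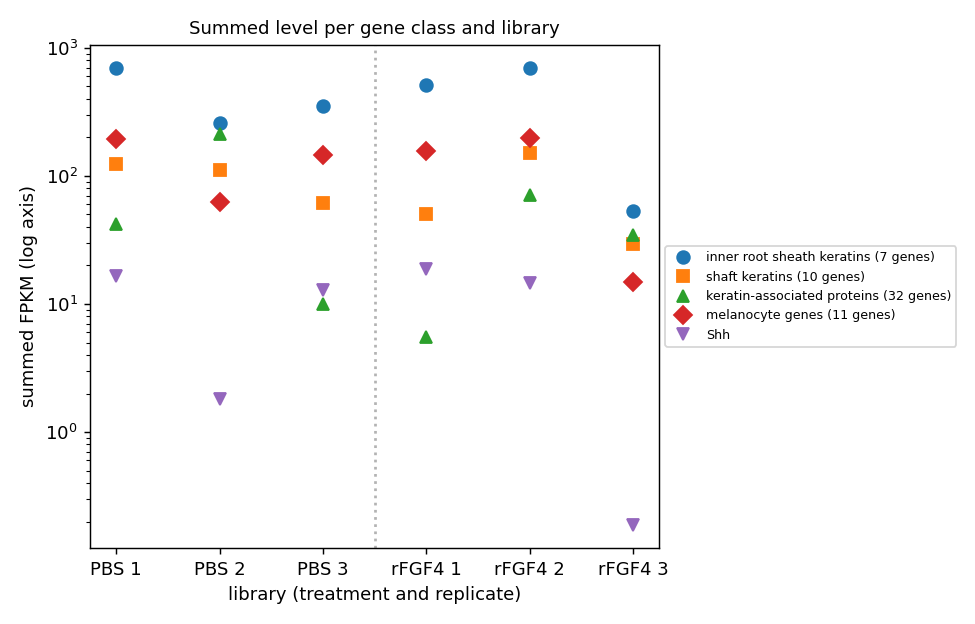
Summed FPKM (log axis) of 3 classes of hair genes, of 11 melanocyte genes and of Shh in each library, 3 PBS to the left and 3 rFGF4 to the right of the dotted line. Shh and the melanocyte genes are lowest in PBS replicate 2 and rFGF4 replicate 3 within their groups, while the keratin-associated genes peak in PBS replicate 2.

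Replicates of 1 group differed far more in hair genes than in most genes. The SD within groups of log2(FPKM + 0.1) had a median of 1.69 over the 56 genes and of 0.239 over all listed genes. In 55 of the 56 it exceeded the 90th percentile of all listed genes, 0.636; the exception was Foxn1. Low genes vary more, so levels were separated. Among genes with a mean of at least 30 FPKM, the 6 hair genes had a median SD of 1.54 beside 0.213 for 1395 listed genes. Between 2 and 30 FPKM the 21 hair genes had a median of 1.27 beside 0.207, and below 2 FPKM the 29 hair genes had 1.86 beside 0.404. All 56 exceeded the 90th percentile of listed genes at their own level. Several keratin-associated genes below 2 FPKM are listed only because they passed 1 FPKM in PBS replicate 2, a choice that widens their SD. The medians of 1.69 and 1.86 and the counts over 56 genes include them. The standard error of the fold change of the 34 tested hair genes had a median of 0.979 beside 0.182 over all tested genes.

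**Figure D5:**
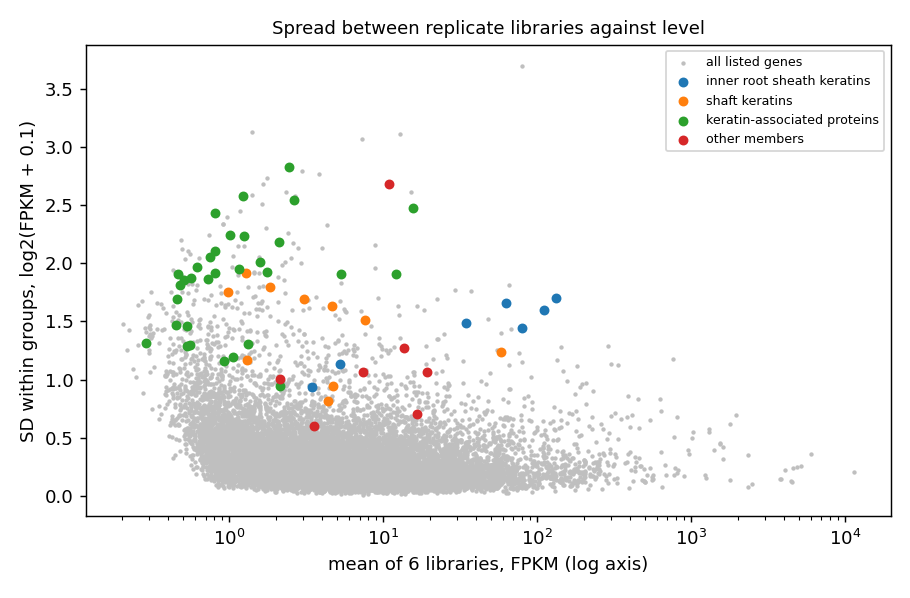
SD within groups of log2(FPKM + 0.1), pooled over 3 PBS and 3 rFGF4 libraries (vertical axis), against mean FPKM (log axis) for 16131 listed genes in grey and the hair genes in colour. Each hair gene lies above the 90th percentile of listed genes in its level range (under 2, 2 to 30 or at least 30 FPKM). Krtap14 and Shh are the highest of them at 2.82 and 2.68, and Foxn1 is the lowest at 0.599.

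Other follicle genes, chosen as lists with earlier results of these data known, divided only in part in the same way. Of 22 follicle transcription factors and matrix signals, 21 were listed, and limma called 0. PBS replicate 2 was the lowest PBS library for 16 of the 21 and rFGF4 replicate 3 the lowest rFGF4 library for 18. Shares of all genes lowest within a group were not computed. Of all 6 libraries, rFGF4 replicate 3 was the lowest for 14 of the 21, beside 11.85% of all listed genes. PBS replicate 2 was the lowest for 5 of the 21, beside 30.8% of all listed genes, so low values there are common. Dlx3, a homeobox factor of the matrix and sheath, measured 72.4, 28.0 and 47.7 FPKM in PBS and 65.9, 68.1 and 5.76 FPKM in rFGF4. Lef1, the Wnt effector of the precortex, measured 5.84, 1.85 and 3.95 FPKM in PBS and 5.58, 6.59 and 0.379 FPKM in rFGF4. Hr, the hairless corepressor, was instead highest in PBS replicate 2, at 53.8 FPKM beside 24.8 to 34.7 FPKM elsewhere. Of 13 other shaft and companion layer genes 10 were listed, 8 were tested and 0 called. PBS replicate 2 was the highest PBS library for 8 of the 10. Lrrc15, the most abundant of these, measured 57.3, 79.4 and 67.7 FPKM in PBS and 84.5, 103.7 and 91.5 FPKM in rFGF4. Its groups did not overlap, as in 36.9% of all listed genes, and it was not called (limma adjusted p = 0.107). S100a3, a calcium-binding protein of the hair cuticle, measured 26.5, 31.8 and 13.0 FPKM in PBS and 6.98, 30.7 and 4.41 FPKM in rFGF4. Krt75, the keratin of the companion layer, measured 30.4, 17.8 and 16.9 FPKM in PBS and 22.3, 31.0 and 8.79 FPKM in rFGF4.

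Melanocyte genes, which make the pigment passed into the growing shaft, were lowest in the 2 libraries where Shh was lowest. The 11 genes summed to 193.4, 62.96 and 146.6 FPKM in PBS and to 155.7, 198.5 and 14.8 FPKM in rFGF4, and limma called 0 of the 10 tested. Pmel measured 59.4, 17.6 and 42.0 FPKM in PBS and 41.2, 60.1 and 3.02 FPKM in rFGF4. Tyrp1 measured 40.6, 11.3 and 31.1 FPKM in PBS and 42.9, 45.8 and 2.70 FPKM in rFGF4, while Oca2 was listed at 0 in rFGF4 replicate 3. Of 11 dermal papilla genes 10 were listed, 9 were tested and 1 was called, Fgf7. Fgf7 was called higher with rFGF4 (3.96 ± 1.36 to 10.1 ± 3.28 FPKM, SD, n = 3 each, limma adjusted p = 0.0454) but not with the length trend removed (adjusted p = 0.164). PBS replicate 2 was the lowest PBS library for 7 of the 10 and rFGF4 replicate 3 the lowest rFGF4 library for 7. Alpl, an enzyme of the papilla, measured 5.14, 0.639 and 3.96 FPKM in PBS and 4.58, 4.65 and 0.431 FPKM in rFGF4. Sostdc1 was instead highest in PBS replicate 2, at 12.7, 19.3 and 8.49 FPKM in PBS and 9.11, 14.9 and 12.4 FPKM in rFGF4. Vcan measured 14.95, 8.39 and 13.8 FPKM in PBS. It was higher in each rFGF4 library, at 25.1, 25.6 and 16.4 FPKM, and was not called (limma adjusted p = 0.0814).

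Stem cell genes of the follicle were mixed in rFGF4 replicate 3, where Shh was lowest. Krt15, a keratin of the bulge and basal layer, measured 241.9, 170.1 and 111.7 FPKM in PBS and 209.7, 162.8 and 456.2 FPKM in rFGF4. Fgf18, a signal known to hold follicles at rest, measured 0.208, 0.714 and 0.524 FPKM in PBS and 1.11, 0.594 and 3.57 FPKM in rFGF4. Of the 10 genes in this list, 5 were highest in rFGF4 replicate 3, where 20.4% of all listed genes are highest. In contrast, 4 (Lgr5, Lgr6, Tbx1 and Foxc1) were there at their lowest among the rFGF4 libraries. Limma called 0 of the 8 tested, and Fgf18 missed the filter. Lgr5, a receptor that marks follicle stem cells, measured 4.34, 4.26 and 3.36 FPKM in PBS and 8.01, 6.75 and 3.84 FPKM in rFGF4. Proliferation genes were lowest of the PBS libraries in PBS replicate 2 for 15 of 15, with 0 called. They were lowest of the rFGF4 libraries in rFGF4 replicate 3 for 14 of 15. Of all 6 libraries, rFGF4 replicate 3 was the lowest for 11 and PBS replicate 2 for 3 of the 15. Over all listed genes these shares were 11.85% and 30.8%. Mki67 measured 40.0, 19.8 and 32.1 FPKM in PBS and 58.1, 49.6 and 14.1 FPKM in rFGF4. Epidermal genes did not share this order: Krt5 measured 1497, 2402 and 831.9 FPKM in PBS and 1068, 852 and 1215 FPKM in rFGF4. The part that melanocyte, proliferation, stem cell and epidermal levels have in the spread of the hair genes was not tested.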

How the data were processed

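Polyadenylated RNA of 6 skin samples was sequenced as paired ends from dUTP libraries, which mark the strand, per the labels' protocols. Tools in the submitters' processing notes are HISAT2, fastp, edgeR and StringTie, and the build there is the human GRCh38, although organism and symbols are mouse; which reference was used is open, and use of strand in counting is not given in the sources used here. FPKM is the unit taken for the authors' 6 value columns, from their values and StringTie, since the header names none. Per the file headers, the authors also deposited a fold ratio, its log2, a p-value and a q-value for each gene. It lists genes that passed 1 FPKM in at least 1 library (smallest maximum 1.0001), so other Krtap genes were not analysed here. The number of value columns without a sample was 0. Depth is unknown.

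Limma-trend was run on log2(FPKM + 0.1) of genes that reached 1 FPKM in 3 or more libraries (robust, two-sided, group only), adjusted over all tested genes at 0.05; 3 against 3 libraries cannot give an exact permutation p below 0.1, so none was used. The labels do not say that libraries are separate animals, so p-values reflect only how these libraries vary. Members and lists were chosen with earlier results of these data known. The genes named in full are the 7 non-keratin genes, the 2 with the highest mean of each class, called genes and the 3 with the widest range, 22 in all; others named beside them were chosen after their values were seen. Lengths and positions came from GENCODE M21 (56 of 56 matched); the length trend was removed by loess (span 0.3, degree 1). Sequence likeness is the best blastn match over at least 50% of a transcript. Alternatives are given in the closing section; the script was tested on simulated data. Software was limma 3.58.1 and statmod 1.5.0 in R 4.3.3, and Python 3.11.15. The labels name no batch.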

Additional observations from a re-analysis of the deposited data

How the results depend on the processing

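Limma called 0 hair genes under every alternative tried but 1, the fit without rFGF4 replicate 2, which called Krt36 (0 to 1 with a library left out). Over all genes there were 1773 calls, 156 to 890 with a library left out, 78 with PBS replicate 2 and rFGF4 replicate 3 both left out (chosen after seeing the data), 306 with the length trend removed, 755 median centred and 749 quantile normalized; no filter, at least 5 FPKM, a mean of at least 1 FPKM and pseudocounts of 1 and 0.01 kept the count within 1.5 times. The replicate block left 233 calls over all genes and 0 hair genes, with 1 at an unadjusted p under 0.05 (Krtap3-3); deviations of same-numbered libraries correlated at 0.18, -0.07 and -0.13, and not every library correlated best with its own number, so the numbers are not taken as pairs.

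Direction of the log2 fold change depended on single libraries. With 1 library left out it ran from -0.55 to 0.77 for Dsg4, -0.37 to 0.35 for Foxn1, -0.72 to 0.20 for Hoxc13, -1.26 to 0.79 for Krt25, -1.30 to 0.41 for Krt28, -1.31 to 0.22 for Krt31, -1.46 to 0.18 for Krt35, -1.50 to 0.52 for Krt71, -1.22 to 0.73 for Krt73, -1.60 to 0.23 for Krt83, -0.61 to 0.64 for Krt86, -1.79 to 0.18 for Krtap11-1, -1.60 to 1.74 for Krtap14, -1.97 to 0.73 for Krtap7-1, -1.11 to 0.43 for Msx2, -1.87 to 1.15 for Shh and -0.76 to 0.56 for Tchh. Krtap8-1 (-3.01 to -1.002) and Padi3 (-1.65 to -0.19) kept their sign. With both libraries left out the sign turned in 14 genes, to 0.35 for Foxn1, 0.20 for Hoxc13, 0.41 for Krt25, 0.078 for Krt28, 0.40 for Krt31, 0.27 for Krt71, 0.21 for Krt73, 0.38 for Krt86, 0.12 for Krtap11-1, 1.29 for Krtap14, 0.14 for Krtap7-1, 0.14 for Msx2, 0.17 for Shh and 0.71 for Tchh, and did not turn for Krtap8-1 (-1.25), Padi3 (-0.19), Krt83 (-0.024), Krt35 (-0.011) and Dsg4 (0.64). Dsg4 was -0.26 with the length trend removed, -0.15 median centred and -0.052 quantile normalized, and Krtap14 was 0.24 with the length trend removed, 0.67 with a pseudocount of 0.01 and 0.079 quantile normalized; the cause was not tested. FPKM keep no depth, so values near 0 carry no interval.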

Other observations

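Sebaceous gland genes, which sit beside the follicle, did not follow the hair genes. Of 8 listed, limma called 1 (higher), Scd1, the desaturase of sebum and fat, which rose from 106 ± 9.93 to 219.4 ± 35.2 FPKM (SD, n = 3 each, adjusted p = 0.0189; 0.118 with the length trend removed). Their sum was 239.3 to 345 FPKM in PBS and 320.5 to 479.9 FPKM in rFGF4, and 6 of the 8 were highest in rFGF4 replicate 3, the library lowest in sheath keratins. Adipocyte genes numbered 9, with 0 of the 8 tested called, at a sum of 245.4 to 312 FPKM in PBS and 225.4 to 257.5 FPKM in rFGF4. Of 7 fibroblast genes 5 rose, among them Pdgfra, the receptor that marks fibroblasts (10.7 ± 1.43 to 23.1 ± 4.08 FPKM, limma adjusted p = 0.0186), and 0 of the 5 were called with the length trend removed. Krtdap, an epidermal differentiation gene, fell from 298 ± 99.0 to 127 ± 2.99 FPKM (limma adjusted p = 0.0409; 0.375 with the length trend removed). Macrophage genes had 1 of 6 called, Mrc1 (11.48 ± 0.675 to 34.7 ± 0.358 FPKM, limma adjusted p = 0.00154; 0.00291 with the length trend removed), while endothelial and neutrophil genes had 0 of 6 and 0 of 5.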
